A study of Mus musculus with 12 samples.

Results

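The list of polyA sites (PASs) measured by 3′READS in mouse hippocampal slices holds 55813 PASs, and 265 of them stand under 2 or more gene symbols. The list was taken whole and holds more PASs than the study reports as identified. The study's limits on reads and relative abundance were not applied here. A PAS was counted as shared when its identifier, made of chromosome, strand and position, occurred under at least 2 gene symbols, and no read count was used for this choice. The 265 shared PASs are 0.475% of all PASs, fill 656 of the 56204 entries (1.17%) and belong to 277 of the 16627 listed genes (1.67%). 3′READS sequences the ends of polyadenylated RNAs, and the list is common to 12 libraries in 4 groups of 3 replicates: acute hippocampal mini-slices of 3-month-old C57BL/6 mice that had received vehicle (0.2% DMSO) or chemical LTP (50 uM forskolin, followed by forskolin with 30 mM KCl and 10 mM calcium), taken 1 hr or 3 hr later. The study cut the dentate gyrus away and took treated and control slices from the same animals, so each library is of mixed tissue, which was not checked here against marker genes. The positions and region labels have no replicates, and the read counts behind them were not analysed here. No comparison of LTP with control slices was therefore made, and whether reads are repeated or divided between the genes of a shared PAS was not analysed here.

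Cleavage and polyadenylation end nearly every mRNA of a protein-coding gene. The enzyme complex recognises a hexamer, most often AAUAAA or AUUAAA, a short distance upstream of the cut, and the position of the cut is the PAS. A PAS in the last exon changes the length of the 3′UTR, while a PAS in an intron gives a shorter transcript with another end. Gene annotation can place a single genomic position in several genes when genes share their last exons, when a gene lies inside an intron of another, when transcripts run through from a gene into the next, or when promoters point away from each other. A read from such a place names a position and not a gene.

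Sequences from annotated 3′ ends were taken for a few genes whose ends are identical, which was not the usual case. Each is the last 30 nt of a GENCODE M21 transcript on the GRCm38 build, written 5′ to 3′ on the transcript strand as DNA. Only the last hexamer AATAAA or ATTAAA of each is in capitals. The end of *Tgtp1* and *Tgtp2* also holds an earlier ATTAAA, left in lower case. The list's own positions are on the older mm9 build and were not converted, so the sequences belong to the annotated transcript ends and not to a measured PAS. The first set holds genes whose annotated transcripts stop at the same base. Of 36 pairs that overlap on the same strand, 5 had transcripts with the same last 30 nt, and in 12 of 34 the end of one gene occurred exactly in a transcript of the other.
Ugt1a1 and Ugt1a2, chr1:88218968-88218997, plus strand: agaacttatcAATAAAttcatataaattgt
C1qtnf5 and Mfrp, chr9:44109158-44109187, plus strand: aggtcacttAATAAAcctaaaatcctccca
Insl3 and Jak3, chr8:71690546-71690575, plus strand: ccaaaaagtctaAATAAAaaagcaacttca

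The second set shows genes with a copy at another place in the genome. The printed end of the first gene occurs letter for letter in an annotated transcript of its copy. Of 19 pairs annotated on different chromosomes or far apart, 5 had such an exact match, and the ends of the others differed from the nearest stretch of the partner's transcripts at more than 3 of 30 positions. *Rps27* is from these 5. *Tgtp1* and *Tgtp2* are not among the 19, because they are neighbours 63022 nt apart on the same strand.
Rps27, chr3:90212671-90212700, minus strand, also in Gm9846: gaaccttcccAATAAAcacgttttggatat
Tgtp1, chr11:48985327-48985356, minus strand, and Tgtp2, chr11:49057194-49057223, minus strand: gcacaattaaaATTAAAcacttcatcctaa

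The hexamer was found in the last 30 nt of at least 1 transcript for 174 of the 249 shared-PAS genes with a GENCODE transcript (69.9%). For all listed genes it was 12384 of 15012 (82.5%). The shared-PAS genes were matched by listed symbol or by the current name from RefSeq. All listed genes were matched by listed symbol alone, so the shares are not on the same footing. On the other strand of the same windows, where these hexamers read TTTATT and TTTAAT, the shares were 10.8% and 17.1%. A match of letters is a description of the annotated end and does not show that the site is used.

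Most shared PASs belonged to a pair of genes. There were 252 under exactly 2 genes, 6 under 3, and 7 under 8 or more. They formed 121 distinct sets of genes, and these fell into 115 groups of genes linked by at least 1 common PAS. Chromosomes 11, 10, 4 and 15 held the most, with 32, 27, 27 and 24 PASs, and 1 chromosome of 21 held none. These counts were not set beside the number of all listed PASs on each chromosome. On chromosome 10, *Rmnd1* and *Gm5512* shared 13 PASs, and *Tdg* and *Gm9855* shared 9. The plus strand held 137 and the minus strand 128.

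The same position often carried different region labels under its genes. The authors' labels name the place of a PAS in a gene: exon3 is taken here as the 3′-most exon, exon3ext as the stretch beyond it, exon53 as the exon of a single-exon gene, intron_Comp as the intronic part of a composite terminal exon, intron_Skip as a skipped terminal exon, exon5 and exonI as first and internal exons, and UA as upstream antisense, on the strand opposite to the gene. The label was the same under every gene at 139 of 265 shared PASs (52.5%) and differed at 126. The 126 include 53 PASs whose genes lie on opposite strands in the list. There the labels had to differ, because UA can stand under the gene on the other strand only. Both genes called the PAS exon3 at 65 of the PASs with exactly 2 genes. In 35 shared PASs the label was exon3 under one gene and intronic under another, so the same cut is placed in the last exon of one gene and in an intron of the other.

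**Figure D1:**
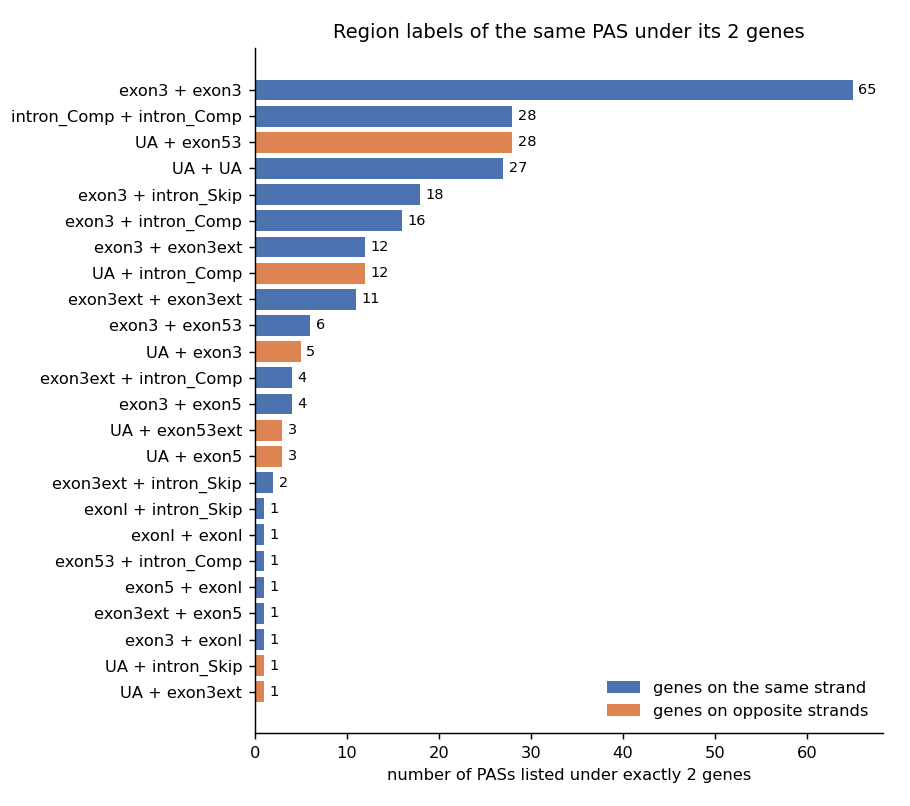
Number of PASs (horizontal axis) for each combination of region labels (vertical axis) among the 252 PASs listed under exactly 2 genes, with bars coloured by whether the genes lie on the same strand or on opposite strands. The pair exon3 with exon3 is the longest bar at 65, and the combinations on opposite strands all hold the label UA.

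Shared entries were spread over the labels in other proportions than entries of PASs listed under 1 gene. UA was the label of 107 of 656 shared entries (16.3%, Wilson 95% interval 13.7 to 19.3) and of 3888 of 55548 others (interval 6.79% to 7.21%). The share of intron_Comp was 13.6% (11.2 to 16.4) against 13319 of 55548 (23.6% to 24.3%), and that of exon3 was 47.1% (43.3 to 50.9) against 55.8%. Entries of the same PAS and of the same gene are not independent, so these intervals cover counting error only and no test was run. The label exon3ext had 11.6% of shared entries against 5.99%, and exon5 had 1.37% against 0.238%. A PAS counts once for each of its genes, so the protocadherin and Ugt1a clusters described below weigh heavily in these shares. Without them 522 of the 656 entries remained, and every entry left out was exon3 or exon3ext. The shares were not recomputed for the 522, where exon3 would hold less and UA and intron_Comp more.

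The position within the gene differed little. Among shared entries on the gene's own strand, 33.2% of 549 were the last or only listed PAS of that gene, against 31.7% of the 51660 entries of unshared PASs. Shared entries were the first of several PASs in 21.5% and lay between others in 45.4%. For unshared entries these shares were 20.4% and 47.9%. Where the gene also had an unshared PAS on its strand, the nearest one lay a median of 2734 nt away, with quartiles of 827 and 19522 nt over 184 entries.

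For 138 of the 277 genes (49.8%) every listed PAS was shared with another gene. Of these, 72 had a single listed PAS and 66 had more than 1. In 41 of the 121 gene sets every PAS of every member was shared, so no listed position belongs to one member alone. Across the 277 genes the median was 3 listed PASs, against 2 for all listed genes, and the median number of shared PASs was 1.

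Annotated positions, taken with the strands given in the list, placed the genes of a shared PAS in 5 kinds of arrangement. For 4 of the 277 genes GRCm38 annotates the other strand than the list. For 62 PASs in 36 gene sets the genes overlapped on the same strand, for 72 PASs in 20 sets one gene was annotated on another chromosome or far away, for 53 PASs in 25 sets the genes lay on opposite strands, for 17 PASs in 9 sets they were neighbours on the same strand without overlap, and 13 PASs in 7 sets stood under 3 or more genes. The remaining 48 PASs in 24 sets held a gene whose position could not be taken from the annotation. By biotype, 212 of the 277 genes were protein-coding, 33 non-coding, 19 pseudogenes and 13 were not matched.

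**Figure D2:**
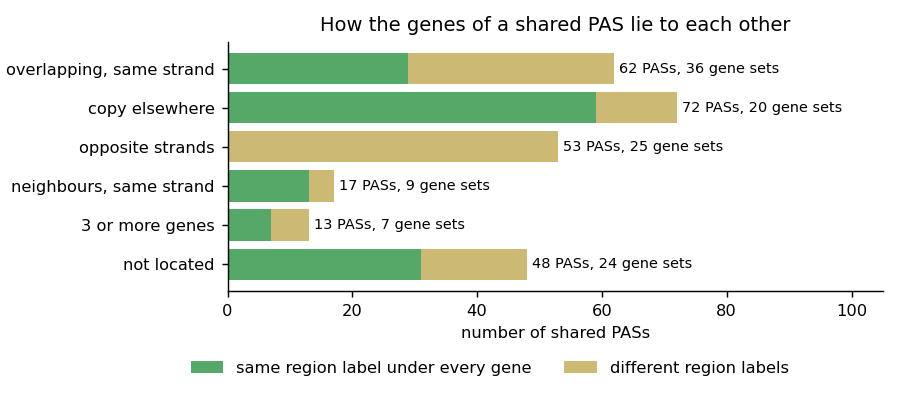
Number of shared PASs (horizontal axis) for each arrangement of their genes (vertical axis), divided by whether the region label was the same under every gene. Copies elsewhere carried the same label at 59 of 72 PASs, overlapping genes on the same strand at 29 of 62, and genes on opposite strands at 0 of 53. The 0 of 53 was fixed by the labels, because a PAS has a single strand. It is UA under the gene on the other strand and cannot be UA under its partner.

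The PASs with the most genes lie in clusters in which alternative first exons are spliced to common last exons. The Ugt1a genes encode UDP-glucuronosyltransferases, which attach glucuronic acid to bilirubin, hormones and drugs, and each member has its own first exon. Their PAS at position 90115573 of chromosome 1 was labelled exon3 under all 8 genes and was the only listed PAS of 6 of them. *Ugt1a5* and *Ugt1a7c* each had 1 other listed PAS. Protocadherin alpha and gamma genes encode neuronal cell-surface adhesion proteins built in the same way, with large variable first exons and common last exons. The alpha PAS on chromosome 18, under 14 genes, was the single listed PAS of each of them, from *Pcdha1* to *Pcdhac2*.

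The protocadherin gamma genes shared 5 PASs on chromosome 18. The 4 PASs at 38001413, 38001470, 38001527 and 38001612 stood under 23 symbols each, and that at 38000979 under 20, without *Pcdhgb2*, *Pcdhgc3* and *Pcdhgc5*. One of the 23 symbols is *Pcdha4-g*, a name that joins an alpha gene with the gamma cluster. All 5 were exon3ext under *Pcdha4-g*. Under the gamma genes the first 4 were exon3 and the PAS at 38001612 was exon3ext, so the extension beyond the last exon was shared by every member as well. Of the 22 gamma genes, 15 had 5 listed PASs, 5 had 6 and 2 had 7.

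The common last exons could also be read in the proteins. Proteins were translated from GENCODE M21 transcripts, and for each pair of genes with a shared PAS the run of identical residues counted from the carboxyl end was taken, using the pair of isoforms with the longest run. The 78 pairs of 13 protocadherin alpha genes shared 152 to 154 residues, and the 231 pairs of 22 gamma genes shared 124 to 128. The 28 Ugt1a pairs shared 245 to 531, with a median of 246, in proteins of 528 to 535 residues. The run of 531 belonged to *Ugt1a6a* and *Ugt1a7c*, whose whole proteins were identical in this annotation. The annotation can hold the same reading frame under both names.

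Outside these clusters most pairs of genes with a common PAS did not share a protein end. Of 50 such pairs with proteins, 16 (32.0%) had an identical run of at least 10 residues, and the other 34 had at most 1 identical residue. The 16 had runs of 64 residues or more, and in 12 of them the whole shorter protein was identical. Such a match can be the same reading frame annotated under both names, and does not show that the main proteins of the genes are alike. In 12706 pairs of listed genes that neighbour each other on the same strand and share no PAS, 39 (0.307%) had a run of 10 residues or more. The clusters raise the share over all 387 pairs to 91.2%.

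**Figure D3:**
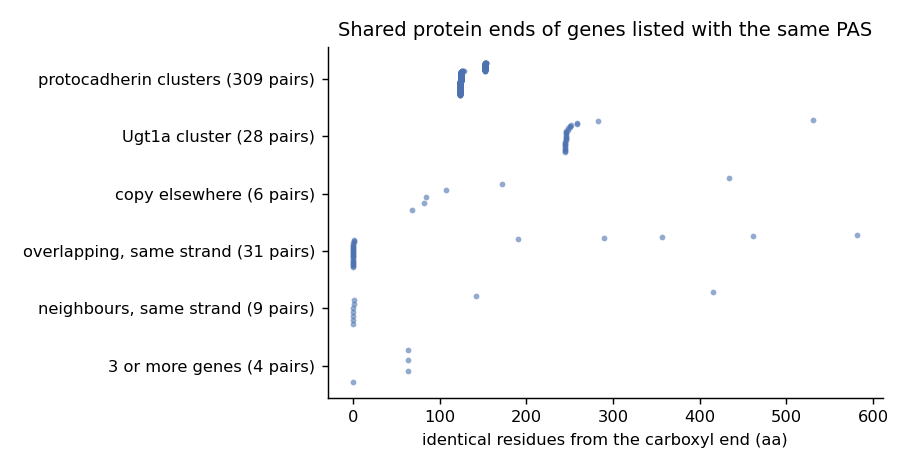
Identical residues counted from the carboxyl end (horizontal axis, aa) for each pair of genes with a shared PAS, 1 point a pair, by arrangement of the genes (vertical axis). The protocadherin pairs sit at 124 to 154 residues, the 6 pairs of copies with proteins at 68 to 434, and most overlapping or neighbouring pairs at 0 or 1.

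Some pairs with a common end encode unrelated proteins. *C1qtnf5*, a secreted protein of the C1q and TNF-related family, and *Mfrp*, a frizzled-related membrane protein, had 1 listed PAS each, the same exon3 PAS at 43917270 of chromosome 9. Their proteins of 243 and 584 residues shared no residue at the carboxyl end. *Snrpn* and *Snurf*, which are translated from 1 imprinted bicistronic transcript, had the single PAS at 67128000 of chromosome 7, with proteins of 240 and 71 residues and again no common end. *Insl3*, a peptide hormone, and *Jak3*, a tyrosine kinase, shared the exon3 PAS at 74214474 of chromosome 8, which was the last of 4 for *Jak3* and lay inside a series of 3 for *Insl3*. These 3 pairs were chosen after their values were seen.

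Other overlapping pairs had the same coding end in at least 1 annotated isoform of each gene. Only the isoforms with the longest match were compared. The annotation can hold the same reading frame under both names, and other isoforms of the genes can differ. *Gdf1* and *Lass1*, the second a ceramide synthase gene, both ended at 72855465 and 72855490 of chromosome 8. A protein of 357 residues was annotated under both names, on transcripts with the same last 1349 nt. This does not show that the ceramide synthase itself has this end. *Ddi2* and *Rsc1a1* shared 582 residues in the isoforms with the longest match, and their transcripts had an identical stretch of 1749 nt. Both had the PAS at 141239479 of chromosome 4, which was exon3 under one and exon53 under the other. *Schip1*, which encodes a protein of the axon initial segment and nodes of Ranvier, and *Iqcj-schip1*, the longer gene that runs through it, had all 10 of their listed PASs in common. The 4 upstream PASs, from 68299523 to 68411227 of chromosome 3, were intron_Comp under both genes and the 6 from 68429870 to 68430406 were exon3 under both. The protein of *Iqcj-schip1* has 559 residues and that of *Schip1* 484, and they were identical over the last 462. *Gdf1* and *Lass1* were chosen after their values were seen.

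In 5 of the 115 linked groups, PASs joined 3 genes into a chain through a middle symbol. The genes of these chains were chosen after their values were seen. *Npcd* stands between *Cbx6*, a Polycomb chromobox gene, and *Nptxr*, the neuronal pentraxin receptor. The only PAS of *Cbx6*, at 79654328 of chromosome 15, was exon3 under *Cbx6* and intron_Skip under *Npcd*. The only PAS of *Nptxr*, at 79616781, was exon3 under both *Nptxr* and *Npcd*. No listed PAS of *Npcd* was its own. *Npcd* and *Nptxr* had 290 identical residues at the carboxyl end, in proteins of 469 and 493 residues, while *Cbx6* and *Npcd* had 0.

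The other chains had the same order of labels. *U05342* connects *Zfp91*, a zinc finger gene, with *Cntf*, ciliary neurotrophic factor. The PASs at 12843351, 12842812, 12842503 and 12841506 of chromosome 19 were exon3 under *Zfp91* and intron_Comp under *U05342*, and those at 12838215 and 12838156 were exon3 under *U05342* and *Cntf*. *Cntf* had 1 more PAS, at 12838018, under its own name alone. *Raver1-fdx1l* took the exon3 PAS of *Raver1* at 20879653 of chromosome 9 as intron_Comp, and shared 20871963 as exon3 with *Fdx1l*. *Raver1* encodes an RNA-binding protein and *Fdx1l* a ferredoxin. *BC096441* took the only PAS of *Tnfsf12*, at 69499859 of chromosome 11, as intron_Comp, and shared the exon3 PASs at 69496550 and 69496078 with *Tnfsf13*. Both neighbours encode ligands of the TNF family. *BC090627* linked *Chkb*, choline kinase beta, with *Cpt1b*, the muscle form of carnitine palmitoyltransferase 1. The exon3 PAS of *Chkb* at 89256791 of chromosome 15 was intron_Comp under *BC090627*, and the PASs at 89247052 and 89246836 were exon3 under both *BC090627* and *Cpt1b*. In each of the 5 chains an exon3 PAS of the upstream gene was an intronic PAS of the middle gene, and an exon3 PAS of the downstream gene was exon3 under the middle gene as well.

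The same combination of labels also occurred in pairs without a middle gene. Of the 35 PASs, those of the chains included, that were exon3 under one gene and intronic under another, the PAS was the first of several on the intronic side in 22 entries, an inner one in 8, the last in 2 and the only one in 3. On the exon3 side it was the last in 12, the only one in 10, an inner one in 11 and the first in 3. There were 28 genes on the intronic side and 29 on the exon3 side. The PAS at 92077272 of chromosome 16 was exon3 under *Slc5a3*, a myo-inositol transporter with 6 listed PASs on its strand, and the first PAS, intron_Skip, under *Mrps6*, a mitochondrial ribosomal protein gene whose other PAS lay 35200 nt away. The PAS at 51721680 of chromosome 14 was the only one of *Ang*, angiogenin, and intron_Skip under *Rnase4*, another secreted ribonuclease, with its next PAS 4138 nt away.

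Further pairs had the same labels. *Tmppe* had its exon3 PAS at 114320322 of chromosome 9, and under *Glb1*, lysosomal beta-galactosidase, this was intron_Skip and lay 63173 nt from the other *Glb1* PAS. *Haus3*, a subunit of the augmin complex of the spindle, had an exon3 PAS at 34496540 of chromosome 5 that was intron_Skip under *Poln*, a DNA polymerase, with its nearest unshared PAS 4589 nt away. *Fastkd5*, a mitochondrial RNA processing gene, did so at 130439582 of chromosome 2 with *Ubox5*. *Armcx5* had its only PAS at 132281861 of the X chromosome, which under *Gprasp1* was intron_Skip and lay 56145 nt from the next. *Foxm1*, a transcription factor of dividing cells, had its last exon3 PAS at 128325911 of chromosome 6, which was intron_Comp and first of 6 under *4933413G19Rik*, 1876 nt from the nearest unshared one. The pairs of *Slc5a3*, *Ang*, *Haus3* and *Armcx5* were chosen after their values were seen.

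*Ntng2* shared several intronic PASs with *6530402F18Rik*. *Ntng2* encodes netrin-G2, a membrane-anchored protein of axons that binds a postsynaptic partner, and *6530402F18Rik* is a non-coding gene. They shared 5 PASs on the minus strand of chromosome 2 from 29101971 to 29090600, 11371 nt apart at the ends. All 5 were intron_Comp under *Ntng2*, 5 of its 11 listed PASs. Under *6530402F18Rik*, 3 were exon3 and the 2 most distal were exon3ext, out of 14 listed PASs. The nearest *Ntng2* PAS of its own lay 4212 nt from the last shared one.

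**Figure D4:**
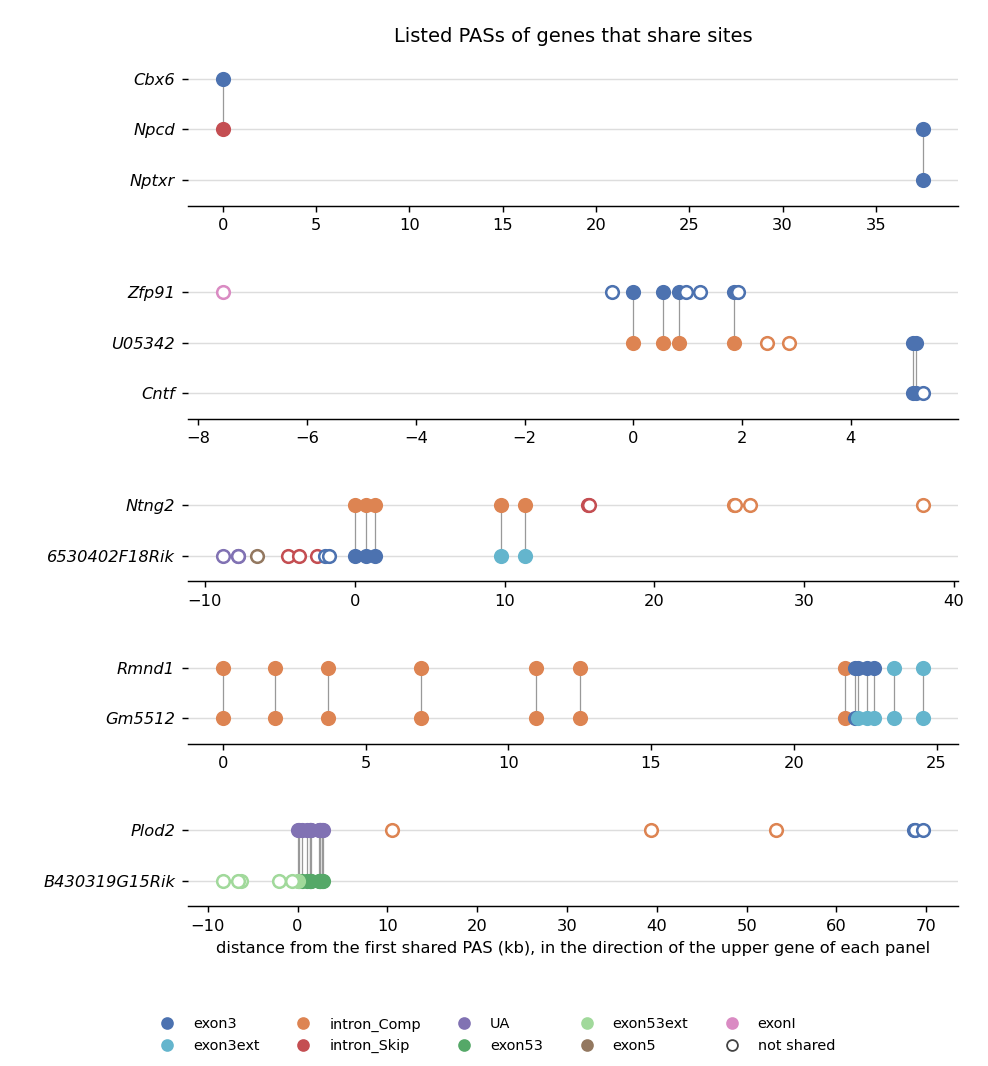
Listed PASs of 5 groups of genes, plotted by distance from the first shared PAS in kb along the direction of the upper gene, with colours for the region label, filled points for shared PASs and lines joining the same PAS under its genes. *Npcd* and *U05342* link an intronic PAS upstream with an exon3 PAS downstream, *Rmnd1* and *Gm5512* share all 13 PASs drawn, and the 12 shared PASs of *Plod2* are UA.

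In a smaller group a last exon met a first exon. At 4 PASs the label was exon3 under one gene and exon5 under the other. Among them were *BC024139* with *Eppk1* at 75949947 of chromosome 15, *Tmc4* with *Leng1* at 3617393 of chromosome 7, and *Wdr90* with *Rhot2* at 25981717 of chromosome 17. None of the 4 pairs had an identical residue at the carboxyl end. *Rhot2* encodes a GTPase of the mitochondrial outer membrane.

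Genes with a copy elsewhere in the genome gave 72 shared PASs in 20 gene pairs. Without pairs that hold a predicted symbol (Gm, Rik or LOC names) 19 PASs in 6 pairs were left, against 49 PASs in 29 pairs of overlapping genes on the same strand. In 17 pairs the copy is annotated on another chromosome and in 3 more than 1 Mb away. Of the 20 pairs, 13 held a pseudogene and 7 were both protein-coding. The region label was the same under both genes at 59 of the 72 PASs (81.9%). Annotated transcripts of the pairs had an identical stretch of 142 to 930 nt at the longest, with a median of 347.5 nt. In 15 pairs every listed PAS of both genes was shared. Ribosomal protein genes, whose processed copies are common in mammalian genomes, were among the pairs, for example *Rpl26*, *Rpl30*, *Rpl34*, *Rps23* and *Rps27*. These genes were picked out after their values were seen.

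Copies were often listed at the position of their partner. Among all shared-PAS genes, 19 had their shared PASs on a chromosome other than the one the annotation gives them, and 14 of the 19 were pseudogenes. For 14 of the 19 every listed PAS was shared, and 4 also had PASs on their annotated chromosome. Among symbols with a single GENCODE gene, 10 of 226 shared-PAS genes (4.42%) had no listed PAS on their annotated chromosome, against 8 of 14761 genes without a shared PAS (0.0542%). A gene listed at the position of its copy carries the same PAS identifiers and so meets the rule for a shared PAS. This difference is therefore largely set by the choice of PASs. *Gm9846*, annotated on chromosome 9 under the name *Rps27rt*, was listed on chromosome 3 with *Rps27*, a protein of the small ribosomal subunit, and their 84 residues were identical. The sequence of this end is printed above, and the pair was chosen after its values were seen.

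*Eno1* showed the pattern over several PASs. *Eno1*, the glycolytic enzyme enolase 1, had 6 listed PASs, and *Gm5506*, annotated on chromosome 18 as *Eno1b*, was listed with the same 6 on chromosome 4. At 149610435 both were UA, at 149622988 both were exon3, and at 149623070, 149623944 and 149624606 both were exon3ext. At 149620751 the labels were exon3 and exonI. Their proteins of 434 residues were identical.

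The pair with the most shared PASs was *Rmnd1*, a gene of mitochondrial translation, and the pseudogene *Gm5512*. All 13 PASs of *Rmnd1* stood on chromosome 10, between 5921215 and 5945752, and all were also under *Gm5512*, which is annotated on chromosome 19. *Gm5512* had 1 PAS of its own, at 12981483 of chromosome 19. The label was intron_Comp under both at 7 of the 13, exon3 under both at 1 and exon3ext under both at 2. At 5943465, 5943767 and 5944027 it was exon3 under one gene and exon3ext under the other. The PASs lie on the plus strand in the list, while GRCm38 annotates *Rmnd1* on the minus strand, and the builds were not compared here. *Tdg*, thymine DNA glycosylase, shared all 9 of its PASs with the pseudogene *Gm9855* over 21787 nt of chromosome 10, and GRCm38 places the genes 40574522 nt apart. *Tdg* and *Gm9855* were chosen after their values were seen.

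*Ndufs5* and *Sap18* differed in how far the sharing went. *Ndufs5*, a subunit of respiratory complex I, had 6 listed PASs and shared all of them with the pseudogene *BC002163*, including 3 intron_Comp PASs and 1 UA PAS. *BC002163* had 1 more PAS on another chromosome. *Sap18*, a protein of histone deacetylase and splicing complexes, shared 2 of its 3 PASs with *Gm10094*, annotated on chromosome 8 as *Sap18b*. These were 58421186, exon3 under both, and 58423417, exon3 under *Sap18* and exon3ext under *Gm10094*. *Gm10094* had 7 listed PASs on chromosome 14, and 4 PASs between the shared ones stood under *Gm10094* alone. The proteins of 172 residues were identical. *Ndufs5* was chosen after its values were seen.

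Some copies are annotated on the same chromosome as each other, while those of *Hnrnpa1* are not. *Hba-a1* and *Hba-a2*, which encode the same alpha-globin chain of 142 residues, were listed with the same PASs at 32184350 and 32184382 of chromosome 11, although 12024 nt separate the genes in GRCm38. *Tgtp1* and *Tgtp2*, interferon-induced GTPases with an identical protein of 415 residues, had the single PAS at 48799866 of chromosome 11 and lie 63022 nt apart. The beta-globin genes *Hbb-b1* and *Hbb-b2* had the single PAS at 110961038 of chromosome 7. In each of these pairs all PASs of both genes were exon3, and no listed PAS belonged to one gene alone. *Hnrnpa1*, an RNA-binding protein that acts in splicing, shared 3 PASs on chromosome 15 at 103075393, 103075753 and 103075935 with the pseudogenes *Gm10052* and *Gm5643*, which are annotated on chromosome 9 and the X chromosome. The globin and Tgtp pairs were chosen after their values were seen.

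On opposite strands, as the list gives them, 53 PASs joined 25 pairs of genes. GRCm38 annotates *D730005E14Rik*, the listed partner of *Apobec3*, on the other strand than the list. This pair was chosen after its values were seen. In all 53 the PAS was UA under a protein-coding gene and carried another label under a non-coding gene on the other strand. Mammalian promoters often start transcription in both directions, and the upstream antisense RNA is usually short and unstable. These 53 are 1.33% of the 3995 UA entries in the list. In 21 of the 25 pairs the annotation has the genes overlapping, and the other 4 pairs were not located. Under the non-coding gene the label was exon53 at 28 PASs and intron_Comp at 12.

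*Plod2*, which encodes a lysyl hydroxylase of collagen, had the most of them. Its 12 UA PASs ran from 92433593 to 92436451 of chromosome 9, over 2858 nt, and all stood under *B430319G15Rik*, 11 as exon53 and 1 as exon53ext. They were 12 of the 18 PASs listed for *Plod2* and 12 of the 17 for *B430319G15Rik*. *Ccdc17* shared 8 of its 20 PASs, over 3744 nt of chromosome 4, with *C530005A16Rik*, where 6 were intron_Comp and 2 exon5. *Jrk* shared 3 UA PASs at 74540606, 74540781 and 74540883 of chromosome 15 with *4933427E11Rik*. Developmental genes and an RNA-binding protein gene had 1 each. *Shh*, the secreted sonic hedgehog ligand, had a UA PAS at 28793759 of chromosome 5 that was exon5 under *9530036O11Rik*. *Dlx6*, a homeobox gene of forebrain interneurons, had one at 6811850 of chromosome 6 that was exon53ext under *Dlx6as2*. *Ptbp1*, a repressor of neuronal splicing, had one at 79316502 of chromosome 10 that was exon53 under *E130317F20Rik*, and this last gene was chosen after its values were seen.

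RefSeq promoters, 250 nt before to 50 nt after the start on GRCm38.p6, were matched for 18 of the 25 protein-coding genes on the UA side. Their 25 promoters held a median of 14 CG dinucleotides (range 2 to 47) and a median GC content of 58.3%. All 32851 promoters held a median of 7 CG dinucleotides, with quartiles of 3 and 20, and 52.7% GC. CG reads the same on both strands. *Ccdc17* was at the lower end with 5, while *Rsbn1l* had 33 and *Rcor3* had 47. Each of the last 2 genes shared 3 UA PASs with its non-coding partner, so the genes with several shared UA PASs included promoters poor and rich in CG. *Rsbn1l* and *Rcor3* were chosen after their values were seen.

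At 27 PASs in 17 pairs both genes had the label UA, so the list places the PAS upstream of 2 genes on the same strand. Of these, 10 belonged to neighbours without overlap. *Lrrc26* and *Tmem210* on chromosome 2 shared 6 UA PASs over 1898 nt and lie 726 nt apart in GRCm38. These were 6 of 17 PASs listed for *Lrrc26* and 6 of 9 for *Tmem210*. Another 10 belonged to copies elsewhere, such as the UA PAS of *Eno1*. *Hist1h1e* and *Hist1h2be*, a linker and a core histone gene, shared a UA PAS at 23716140 of chromosome 13. *Lrrc26* and *Tmem210* were chosen after their values were seen.

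In 50 cases a gene set had at least 2 shared PASs on a strand, and in 46 of these no PAS between them stood under 1 member alone. In 19 of the 50 every listed PAS of both genes was shared, so none could, and of the other 31 runs 27 had none. The 4 exceptions held 10 such PASs in all. They were 4 of *Gm10094* within its run with *Sap18*, 3 in the run of *LOC100504473* and *Msi2*, 2 of *Zfp91* at 12842390 and 12842124, and 1 in that of *3110001I22Rik* and *Bfar*, and the last 3 of these sets were chosen after their values were seen.

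Gene lists of synaptic, immediate early, and cleavage and polyadenylation genes were read by the stems of their symbols, such as Gria and Syt, Fos and Egr, or Cpsf and Cstf. A shared PAS was held by 0 of 161 listed synaptic genes, 0 of 19 immediate early genes and 0 of 24 cleavage and polyadenylation genes, beside 1.67% of all listed genes. At that share few or none would be met in lists of these sizes. The stems do not take in every gene of these kinds. *Nptxr* and *Ntng2*, described above, hold shared PASs and lie outside the stems. Among the 65 listed genes with the stems Pcdha, Pcdhb, Pcdhg and Ugt1a, 44 held one, and no Pcdhb gene was among the 44.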

How the data were processed

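The series measured polyA sites in 12 libraries (4 groups of 3) by 3′READS. The deposited list gives for each PAS a gene symbol, strand, position and region label, and these are the values used here. Per the submitters' processing notes, reads were mapped with Bowtie2 to mm9. The authors called a PAS from reads with at least 2 unaligned Ts and joined cleavage positions within 24 nt. The authors' 12 columns of read counts carry names that match no sample label, so these 12 columns were not used, and no test, depth or replicate error is given. Replicates are animals per the labels.

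PASs under 2 or more symbols were taken. Symbols were matched to GENCODE M21 (226 genes), then through RefSeq synonyms (22) or RefSeq for the chromosome only (16), and 13 were not matched. Both annotations are on GRCm38 and were used for names, biotypes, arrangement, transcripts and promoters, and no coordinate was moved between builds. Arrangement came from GENCODE positions and from the strands in the list, with genes over 1000000 nt apart called far apart. In place of a RefSeq protein table, proteins were translated from GENCODE coding segments. The longest identical stretch was sought over all annotated transcripts of a pair. Shares carry Wilson intervals at 95%. Scripts (Python 3.11.15, pandas 2.3.3, scipy 1.17.1) were tested on simulated lists.

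The members and gene lists were chosen with earlier results of these data known. Named PASs are those under 3 or more genes, up to 4 in each combination of labels by the longest common protein end or else by the most listed PASs, and any with a gene of the synapse, immediate early, cleavage and polyadenylation or cluster lists. Genes named otherwise are marked. Alternatives left out UA entries, predicted symbols (Gm, Rik and LOC names) or the clusters, merged PASs within 24 nt, kept PASs under exactly 2 genes, or set the protein end at 5 or 50 residues. Some genes are not reported here.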

Additional observations from a re-analysis of the deposited data

How the results depend on the processing

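Predicted gene symbols carried much of the sharing: without them 135 shared PASs in place of 265 and 170 genes in place of 277 remained in the list. Without UA entries the share of PASs with the same label under every gene was 60.5% in place of 52.5%, since every PAS on opposite strands holds a UA entry. Without the protocadherin and Ugt1a clusters 32.0% of gene pairs in place of 91.2% had a common protein end. Other alternatives that could move a result kept counts within 1.5 times and shares within their intervals. There were 185 shared PASs without UA entries and 258 without the clusters, and 217 and 232 genes. The same label was found at 52.4% of PASs under exactly 2 genes, and 33.0% to 34.3% of entries were last or alone in the gene. Merging PASs within 24 nt left 265, but this tests nothing, because the authors had already joined cleavage positions within 24 nt. Cut-offs of 5 and 50 residues gave the same 353 protein pairs, which was fixed by the lengths of the runs. Outside the clusters these were at most 1 residue or at least 64, and within the clusters at least 124. Tests on read counts, with another tool, no filter on low counts or a library left out, were not run. No paired analysis was possible because the count columns carry no number that the labels give to an animal. Region labels and symbols are those of an older annotation than the transcripts and proteins compared here, 28 gene sets had no annotated position for a member, and depth was not analysed here.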

Other observations

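A spreadsheet date had replaced the symbol of some genes in the list. Of all listed symbols, 24 read as a date, in 74 entries, and 1 of them holds a shared PAS. The symbol 5-Sep had a single PAS, at 18621904 of chromosome 16 on the minus strand, as exon3, and the same PAS was the only one of *Gp1bb*, the platelet glycoprotein Ib beta gene, as exon53. This symbol was not matched to the annotation and stands among the genes that were not located. The gene behind each date was not restored here. *Gp1bb* was chosen after its values were seen.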
